A study of Homo sapiens with 6 samples.

Results

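Genes of the chaperone and co-chaperone families were compared between HK2 cells that carried an shRNA against PGC-1alpha and HK2 cells that carried a control shRNA. The members were all gene symbols of the array's annotation that begin as those of the HSP70, HSP110, small heat shock protein, HSP90, HSP60, HSP10, DNAJ, PDIA, BAG and CCT families, and 25 of 14884 named genes met that rule. Of these, 19 encode proteins of the cytosol, 2 encode proteins of the mitochondria and 0 encode proteins of the endoplasmic reticulum. The other 4 were the pseudogene HSPA7, the readthrough transcript HSPB2-C11orf52 and the antisense RNAs DNAJC27-AS1 and DNAJC9-AS1, which are not chaperones and were given no compartment. The HSP90, HSPE1, protein-coding DNAJ, PDIA and CCT patterns matched 0 named symbols, so those families were not analysed here, nor were the HSP70 genes HSPA8, the main constitutive one of the cytosol, HSPA5 and HSPA13.

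Chaperones bind proteins that are not yet folded or have lost their fold. HSP70 proteins do so in cycles of ATP hydrolysis, which DNAJ proteins start and nucleotide exchange factors such as the BAG and HSP110 proteins end, while small heat shock proteins hold unfolded proteins without using ATP. Each compartment has its own set: the transcription factor HSF1 governs the stress-inducible genes of the cytosol, the unfolded protein response governs those of the endoplasmic reticulum, and mitochondria depend on HSPA9 and HSPD1 to import and fold proteins made outside them. PGC-1alpha coactivates transcription and is best known for driving the formation of mitochondria, and proximal tubule cells are rich in mitochondria.

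HK2 is an immortalised human line from the epithelium of the kidney's proximal tubule. One group of 3 arrays came from cells transduced with a lentiviral pLKO.1 vector carrying shPGC-1alpha, and the other group of 3 from cells transduced with the same vector carrying shGFP, whose target human cells lack. Puromycin removed untransduced cells from both groups, and RNA was harvested on day 5 of transduction, 24 hours past the end of selection. The labels name a single shRNA for each group, and the level of its target PPARGC1A was not analysed here. The array medians lay between 5.00 and 5.04 on the log2 scale, and precision is limited by having 3 arrays a group. Of 16 markers of the labelled cell type, 11 were among the named genes. PAX8, a transcription factor of kidney epithelium, averaged 11.82 in shPGC-1alpha cells and 11.44 in shGFP cells and was the marker called higher, by 0.38. The epithelial keratins KRT19 and KRT18, the adhesion molecule EPCAM and the peptidase DPP4 were lower, with differences of -1.42, -0.31, -0.73 and -0.27. LRP2 and CUBN, the endocytic receptors that define the proximal tubule, lay below 4.43, the 20th percentile of named genes. These 11 markers summed to 77.5 to 78.8 log2 units in shPGC-1alpha arrays and 80.2 to 81.5 in shGFP arrays, with 1 higher and 4 lower past the threshold. KRT19 and EPCAM had the largest differences of the 11. KRT8, PAX2, LRP2, CUBN, AQP1 and ANPEP were not called, at -0.09, -0.11, 0.06, -0.05, -0.003 and 0.16. Of 18 markers of other cell types 7 were among the named genes, 4 of them with a mean over all arrays below 4.43. These 7 summed to 38.1 to 38.5 in shPGC-1alpha arrays and 36.8 to 37.9 in shGFP arrays. DCN and CD68 were called higher, while PECAM1, VWF, KDR, LYZ and AQP2 were not called, at -0.12, -0.04, -0.10, -0.01 and 0.08. CD68 had a high level in both groups, averaging 11.49 in shPGC-1alpha cells and 11.15 in shGFP cells, a rise of 0.34. DCN averaged 4.63 in shPGC-1alpha cells and 3.80 in shGFP cells. The mean of DCN over all arrays (4.21) is below 4.43, where differences are less certain. The part of these shifts in the chaperone results was not tested, and in bulk RNA fewer cells of a type and less RNA per cell cannot be told apart.

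Of the 25 members, 4 passed the test, a share near that of all named genes. HSPA12A, a distant relative of HSP70, and HSPD1, the HSP60 chaperonin of the mitochondrial matrix, were lower in shPGC-1alpha cells. BAG3, a co-chaperone of HSP70, and HSPB8, a small heat shock protein that binds BAG3, were higher. These 4 of 25 members passed an adjusted p of 0.05 in limma (16%), where 21.8% of all named genes passed. The 2 that were higher stand beside 9.58% of named genes called higher, and the 2 that were lower beside 12.2% called lower. The median log2 difference of the 25 was 0.02, against -0.02 over all named genes, and the median absolute difference was 0.10, against 0.14. Log2 differences are shPGC-1alpha minus shGFP throughout. For 9 of 25 members the 2 groups' ranges were apart, 5 higher and 4 lower in shPGC-1alpha cells, where 38.7% of named genes had groups that did not overlap.

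**Figure D1:**
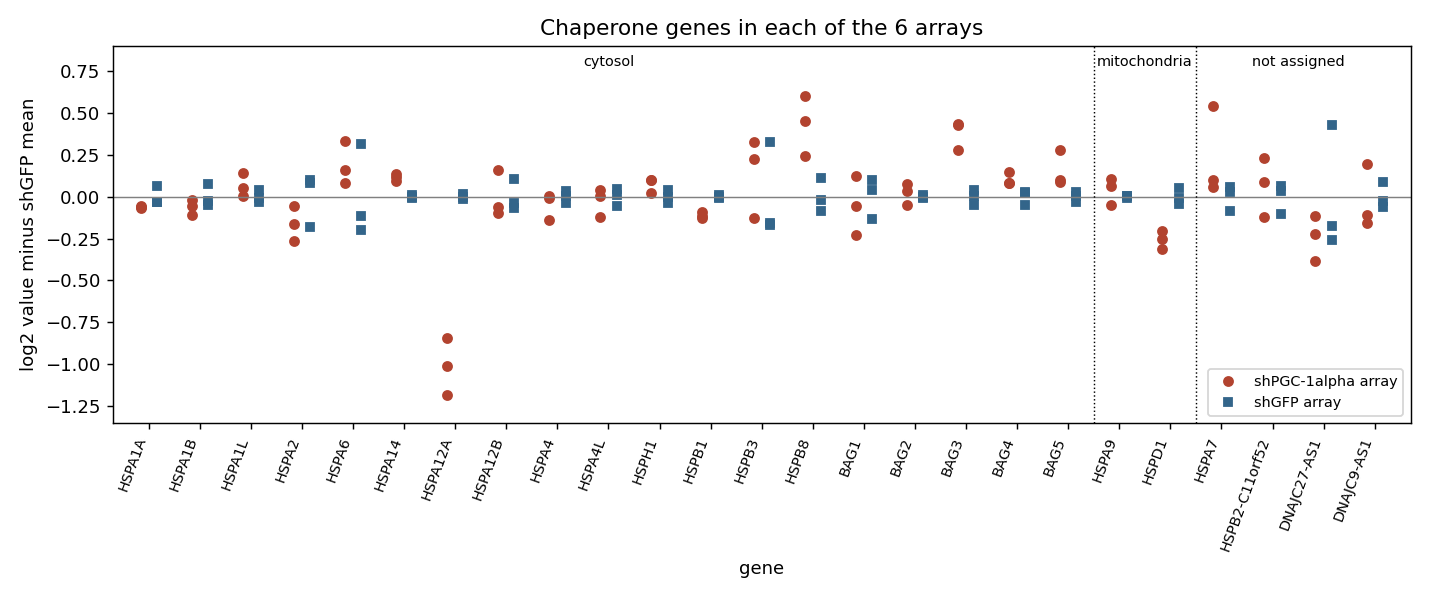
Each member's log2 value in each of the 6 arrays, after subtraction of its mean over the 3 shGFP arrays. Circles on the left of each column are shPGC-1alpha arrays and squares on the right are shGFP arrays, and dotted lines part the compartments. HSPA12A lay furthest from 0 and HSPB8 and BAG3 had every shPGC-1alpha array above every shGFP array.

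**Figure D2:**
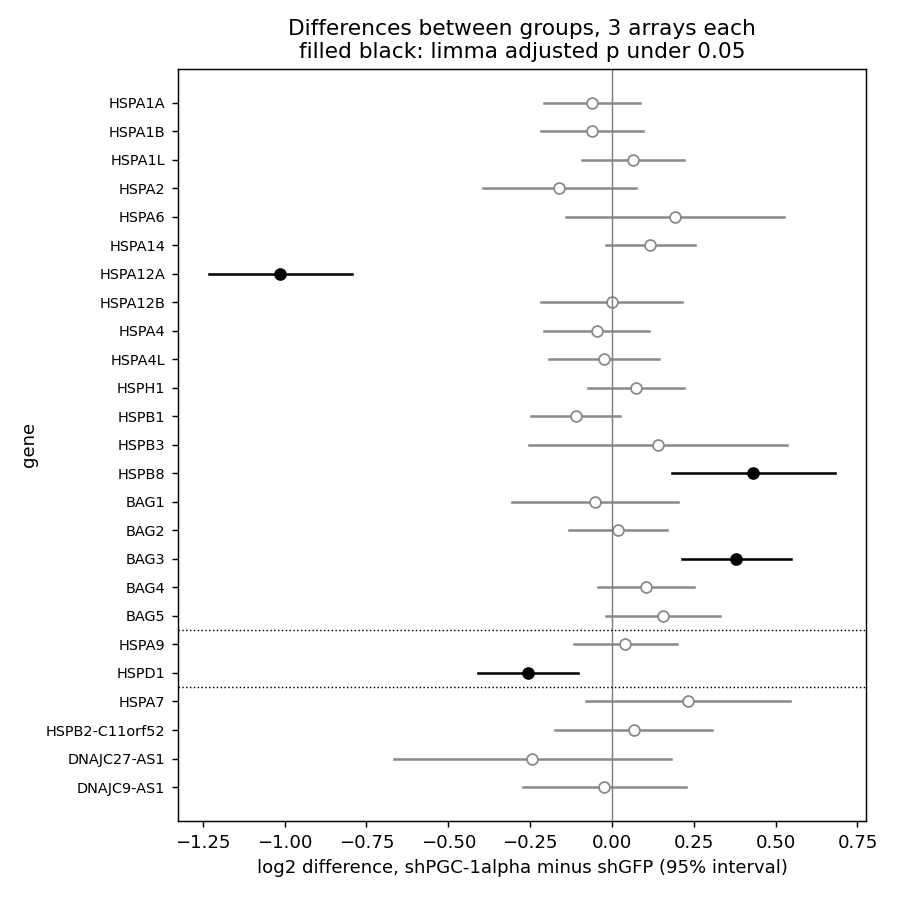
Log2 difference of each member between the groups, with its 95% interval from limma (3 arrays a group). The 4 filled black points passed an adjusted p of 0.05, and the intervals of the other 21 members include 0.

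The 6 HSP70 genes of the cytosol that were named, HSPA12A and HSPA12B apart, did not pass the threshold. HSPA1A and HSPA1B, the stress-inducible pair that encode nearly the same protein, measured 11.31, 11.32 and 11.32 and 11.32, 11.28 and 11.23 in shPGC-1alpha arrays. In shGFP arrays HSPA1A measured 11.35, 11.34 and 11.44 and HSPA1B measured 11.31, 11.29 and 11.42. The HSPA1A arrays did not overlap but lay close together, and those of HSPA1B overlapped. Both differed by -0.06, with a 95% interval of -0.21 to 0.08 for HSPA1A and -0.22 to 0.10 for HSPA1B (limma adjusted p 0.555 and 0.591). Their sequences are so alike that probes can take up either transcript, so the values are not separate measurements. The annotation gave 5 probe sets to HSPA1A, 5 to HSPA1B and 5 to HSPA1L, their testis-enriched neighbour. In HSPA1A 3 of the 5 held the same values in every array, and so did 3 of the 5 in HSPA1L. Over these probe sets the differences lay between -0.07 and -0.06 for HSPA1A, between -0.14 and -0.06 for HSPA1B and between 0.01 and 0.07 for HSPA1L, and 0 of them passed.

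HSPA6, which is induced only by strong stress, measured 5.16, 5.08 and 5.33 in shPGC-1alpha arrays and 4.80, 5.31 and 4.88 in shGFP arrays. Its groups overlapped, since shGFP replicate 2 lay within the range of the shPGC-1alpha arrays, and the difference of 0.19 had an interval of -0.14 to 0.53 (limma adjusted p 0.405). HSPA7, a pseudogene much like HSPA6 that may share its probes, had a difference of 0.23 (interval -0.08 to 0.54). It measured 5.18 in shPGC-1alpha replicate 2 and between 4.55 and 4.74 in the other 5 arrays. HSPA2, an HSP70 best known from the testis, measured 7.65 to 7.86 in shPGC-1alpha arrays and 7.73 to 8.01 in shGFP arrays, with a difference of -0.16 (interval -0.39 to 0.07). HSPA14, which assists chains as they leave the ribosome, measured 7.77, 7.75 and 7.79 in shPGC-1alpha arrays against 7.65, 7.64 and 7.66 in shGFP arrays. Its groups did not overlap, but the difference of 0.12 did not pass (limma adjusted p 0.210).

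HSPA12A was the member with the largest difference. HSPA12A and HSPA12B keep an HSP70-like ATPase domain but are only distantly related to the other HSP70 proteins. HSPA12A measured 7.54, 7.37 and 7.20 in shPGC-1alpha arrays and 8.40, 8.38 and 8.37 in shGFP arrays. The groups lay far apart, and the spread was wider among the shPGC-1alpha arrays. The means were 7.37 ± 0.17 in shPGC-1alpha cells and 8.38 ± 0.01 in shGFP cells (SD, n = 3 each), a log2 difference of -1.01 (SE 0.09, 95% interval -1.23 to -0.80) or a level 2.02-fold lower in shPGC-1alpha cells. Its limma adjusted p was 0.000444, and 98.6% of named genes had a smaller absolute difference. A different probe set of the gene measured 4.42, 4.48 and 4.57 in shPGC-1alpha arrays and 5.05, 4.93 and 5.30 in shGFP arrays. It was lower too, by a smaller log2 difference of -0.60 (SE 0.12), with an adjusted p of 0.0306 in limma over all 53617 probe sets, of which 6.65% passed. HSPA12B, best known from endothelium, measured 5.84, 6.06 and 5.81 in shPGC-1alpha arrays and 6.01, 5.84 and 5.87 in shGFP arrays. Its groups overlapped, with a difference of 0.00 and an interval of -0.22 to 0.21.

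**Figure D3:**
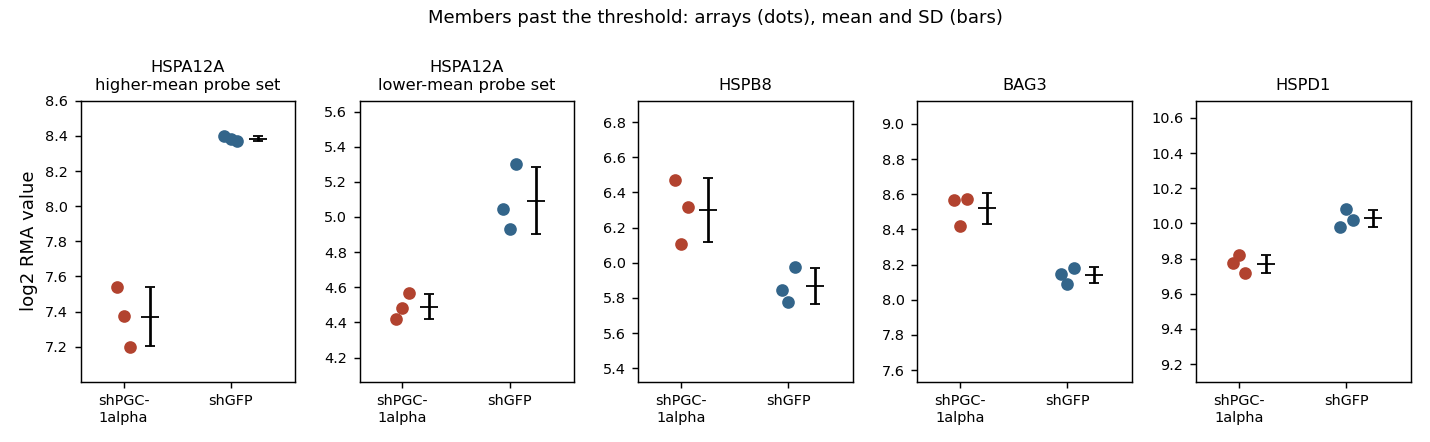
Log2 RMA values of the 4 members past the threshold, with both probe sets of HSPA12A. Each panel spans the same range of log2 units, dots are single arrays (shPGC-1alpha left, shGFP right) and bars give the mean and SD of 3 arrays. The groups overlap in none of the 5 panels.

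The HSP110 genes, whose products speed nucleotide exchange on HSP70 and help it to dissolve aggregates, gave 0 calls among 3. HSPH1, the stress-inducible one, measured 10.58, 10.58 and 10.50 in shPGC-1alpha arrays and 10.44, 10.48 and 10.52 in shGFP arrays, and the groups overlapped. Its difference was 0.07, with an interval of -0.07 to 0.22. HSPA4 and HSPA4L differed by -0.05 and -0.02, with intervals of -0.21 to 0.11 and -0.19 to 0.14.

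Of 3 small heat shock protein genes, 1 passed. HSPB8, also called HSP22, measured 6.47, 6.11 and 6.32 in shPGC-1alpha arrays and 5.84, 5.78 and 5.98 in shGFP arrays. Every shPGC-1alpha array was above every shGFP array, by the least in replicate 2 of the shPGC-1alpha group. The means were 6.30 ± 0.18 in shPGC-1alpha cells and 5.87 ± 0.10 in shGFP cells (SD, n = 3 each), a rise of 0.43 (SE 0.11) or 1.35-fold with a limma adjusted p of 0.0254. That call was lost without shPGC-1alpha replicate 1 (adjusted p 0.0655) or 3 (0.0774), without shGFP replicate 1 (0.0728) or 2 (0.0857), and with adjustment over all probe sets (0.0887), and its adjusted p lay between 0.00913 and 0.0887 over 14 alternatives. HSPB1, the abundant HSP27 that also binds actin filaments, measured 12.51, 12.48 and 12.49 in shPGC-1alpha arrays and 12.60, 12.60 and 12.61 in shGFP arrays. The groups did not overlap and the spread within them was the smallest of any member, but the difference of -0.11 (SE 0.06, interval -0.25 to 0.02) did not pass (limma adjusted p 0.233). It passed in the single alternative of 14 that let limma's variance depend on intensity (adjusted p 0.0138). HSPB3, a partner of HSPB2 in muscle, had a mean below the 20th percentile in both groups, at 3.79 in shPGC-1alpha cells and 3.65 in shGFP cells, and its groups overlapped.

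Among BAG co-chaperones, which release substrates from HSP70 by nucleotide exchange, BAG3 passed the test. BAG3 links HSP70 and HSPB8 to selective autophagy of damaged proteins. BAG3 measured 8.57, 8.42 and 8.57 in shPGC-1alpha arrays and 8.15, 8.09 and 8.18 in shGFP arrays. The groups did not overlap, with means of 8.52 ± 0.09 in shPGC-1alpha cells and 8.14 ± 0.05 in shGFP cells (SD, n = 3 each). The rise was 0.38 (SE 0.07, 95% interval 0.21 to 0.55) or 1.30-fold, with a limma adjusted p of 0.0088. Over 14 alternatives its adjusted p lay between 0.000404 and 0.0452, and it passed in all 14.

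The other BAG genes had smaller differences that did not pass. BAG5, which binds HSP70 and the ligase parkin, measured 7.91, 7.73 and 7.72 in shPGC-1alpha arrays and 7.66, 7.64 and 7.60 in shGFP arrays, a difference of 0.16 (interval -0.02 to 0.33). BAG4, also known as the silencer of death domains, measured 7.067, 7.005 and 7.005 in shPGC-1alpha arrays and 6.870, 6.942 and 6.952 in shGFP arrays, a difference of 0.10 (interval -0.04 to 0.25). In both genes the groups did not overlap, yet the limma adjusted p was 0.195 for BAG5 and 0.302 for BAG4. BAG1, which also binds BCL2, and BAG2, which inhibits the co-chaperone ligase CHIP, differed by -0.05 and 0.02, and their groups overlapped.

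Both mitochondrial members are central to protein folding in the matrix, and 1 of them passed. HSPD1 forms the chamber in which newly imported proteins fold. HSPD1 measured 9.77, 9.82 and 9.72 in shPGC-1alpha arrays and 9.98, 10.08 and 10.02 in shGFP arrays, so that every shPGC-1alpha array was below every shGFP array. The means were 9.77 ± 0.05 in shPGC-1alpha cells and 10.03 ± 0.05 in shGFP cells (SD, n = 3 each), and HSPD1 fell by 0.26 on the log2 scale (SE 0.06), to a level 1.20-fold lower, with a limma adjusted p of 0.0284. The call was lost without each array other than shGFP replicate 1: the adjusted p was 0.0719, 0.0505 and 0.0785 without shPGC-1alpha replicates 1, 2 and 3, and 0.103 and 0.0802 without shGFP replicates 2 and 3. Over all 14 alternatives it passed in 6, with an adjusted p between 0.001 and 0.116 and the same sign throughout. HSPA9, or mortalin, the HSP70 that pulls proteins through the inner membrane, measured 11.38, 11.42 and 11.26 in shPGC-1alpha arrays and 11.32, 11.32 and 11.31 in shGFP arrays. Its groups overlapped, and the difference was 0.04 (interval -0.12 to 0.20).

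Changes in ratios between members, taken within each array, were set out for 6 pairs chosen after their values were seen and were given no test. The log2 ratio of HSPD1 to HSPA9 was lower by 0.30 in shPGC-1alpha arrays and that of HSPA12A to HSPA12B by 1.01 (changes of -0.30 and -1.01). The ratio of HSPB8 to HSPB1 was higher by 0.54, that of BAG3 to BAG2 by 0.36 and that of BAG3 to HSPA1A by 0.44. In these 5 pairs the groups did not overlap. Each of these pairs sets a member that passed over a member that did not, so the separation repeats those calls in part. The ratio of HSPB8 to its partner BAG3 changed by 0.05, and the groups overlapped.

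The spread of arrays around their group mean varied between these genes, with an SD from 0.0131 in HSPB1 to 0.282 in DNAJC27-AS1. The median SD within groups was 0.0713 for the 25 members and 0.110 for all named genes, and 11 of 25 members lay above 0.110. In shPGC-1alpha replicates 1, 2 and 3, 18, 13 and 8 of 25 members were above their group's mean, with median deviations of 0.03, 0.00 and -0.05. In shGFP replicates 1, 2 and 3 the counts were 9, 12 and 15, with median deviations of -0.02, 0.00 and 0.03. Among the members without a compartment, DNAJC27-AS1 had the widest spread, with 5.02 in shGFP replicate 2 and 4.20 to 4.47 in the other 5 arrays. Its difference was -0.24 (interval -0.67 to 0.18), and those of DNAJC9-AS1 and HSPB2-C11orf52 were -0.02 and 0.07. Whether the probes of these transcripts also took up overlapping genes was not tested.

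The promoters of several members hold letters that form part of a heat shock element, the motif that HSF1 binds. They are shown to set these letters beside the members' changes. Only exact matches close to each start were sought, so altered or more distant elements would be missed, and binding of HSF1 was not tested. The motif was searched as GAANNTTC and as TTCNNGAA, each of which reads the same on both strands, in the 250 bases before each start that RefSeq gives (build GRCh38.p14), and matches of the 2 forms can overlap. RefSeq windows were found for 20 of the 25 members, and BAG4, HSPA12B, HSPA14, HSPA7 and HSPB2-C11orf52 were the others. At least 1 form was present in 10 of these 20 members (50%) and in 14.0% of 27305 genes, and in 11.6% of all 35116 windows. The windows of HSPA1A and HSPA1L, which lie head to head, overlap and share 1 match, so it is counted for both. GAANNTTC was in 5.78% of windows and TTCNNGAA in 6.62%. Of the 4 members that passed, HSPB8 and HSPD1 had a match and BAG3 and HSPA12A had 0. The others with a match were HSPA1A, HSPA1B, HSPA1L, HSPA4L, HSPA6, HSPB1, HSPB3 and BAG2, of which 0 passed. In HSPD1 and HSPA4L the matches lay in a window inside the gene itself. The windows before the first start of these 2 genes held 0 matches.

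The sequences shown are those of BAG3 and HSPB8, which were higher, HSPD1, which was lower, and HSPB1 and HSPA1A, which did not pass. Capitals mark the matched letters, and each runs 5′ to 3′ on its gene's strand. BAG3 (chr10:119651130-119651379), HSPB8 (chr12:119178681-119178930), HSPB1 (chr7:76302423-76302672) and HSPA1A (chr6:31815293-31815542) lie on the plus strand and end 1 base before the start. HSPD1 (chr2:197500064-197500089) lies on the minus strand, and its stretch of 26 bases begins 249 bases before the second of its starts, inside a longer transcript of the gene.
BAG3: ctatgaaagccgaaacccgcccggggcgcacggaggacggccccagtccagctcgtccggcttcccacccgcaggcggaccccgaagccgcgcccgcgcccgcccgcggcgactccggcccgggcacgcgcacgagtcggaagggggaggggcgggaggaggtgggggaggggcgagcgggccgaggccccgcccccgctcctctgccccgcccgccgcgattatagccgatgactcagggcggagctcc
HSPB8: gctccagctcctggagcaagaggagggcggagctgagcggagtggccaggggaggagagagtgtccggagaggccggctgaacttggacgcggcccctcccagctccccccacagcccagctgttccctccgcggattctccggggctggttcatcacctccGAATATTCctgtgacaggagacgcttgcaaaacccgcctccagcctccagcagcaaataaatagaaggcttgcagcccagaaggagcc
HSPD1: cattTTCTGGAAAGTTCTGGAAccga
HSPB1: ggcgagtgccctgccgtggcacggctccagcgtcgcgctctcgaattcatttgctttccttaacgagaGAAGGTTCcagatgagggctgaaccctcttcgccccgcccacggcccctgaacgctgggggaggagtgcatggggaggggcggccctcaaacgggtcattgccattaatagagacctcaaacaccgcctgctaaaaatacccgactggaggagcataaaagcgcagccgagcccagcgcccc
HSPA1A: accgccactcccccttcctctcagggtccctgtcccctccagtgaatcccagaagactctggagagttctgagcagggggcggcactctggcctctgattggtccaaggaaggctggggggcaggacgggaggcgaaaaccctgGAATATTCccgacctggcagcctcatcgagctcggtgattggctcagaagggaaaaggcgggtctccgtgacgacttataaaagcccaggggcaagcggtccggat
In HSPB8 and HSPA1A the matched letters are the same and lie 81 and 99 bases before the start at their nearer end, while in HSPB1 they lie 175 bases before it. HSPD1 holds 3 overlapping matches over 18 bases. Of these genes with a match, HSPB8 was higher, HSPD1 was lower and HSPA1A and HSPB1 did not pass.

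The rest of the folding machinery was taken from partner lists by compartment. For the cytosol, 25 of 36 listed genes were among the named genes. Of these 25, 2 were higher and 4 lower (24% called, against 21.8% of named genes, 9.58% higher and 12.2% lower). Their median was 0.02. PDCL, which with the CCT chaperonin assembles G protein beta subunits, averaged 7.36 ± 0.08 in shPGC-1alpha cells and 8.01 ± 0.02 in shGFP cells (SD, n = 3 each), a difference of -0.65 (SE 0.07). NUDC, which works with HSP90, and UNC45A, a chaperone of myosin, fell by 0.40 and 0.36, and VBP1, a subunit of prefoldin, rose by 0.30 (limma adjusted p 0.000761 for PDCL, 0.00324 for NUDC, 0.0112 for UNC45A and 0.0394 for VBP1). VBP1 was lost without each array other than shGFP replicate 2, with an adjusted p of up to 0.114. The count of calls was 3 without shPGC-1alpha replicate 1 or 2 or shGFP replicate 1 or 3, and 4 without shPGC-1alpha replicate 3. HSF1, the regulator of the cytosolic genes, averaged 7.97 in shPGC-1alpha cells and 7.87 in shGFP cells and did not pass, at 0.09 (limma adjusted p 0.412).

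Among partner genes of the endoplasmic reticulum, more were called higher than lower. Of 27 named of 37 listed, 9 were higher and 1 was lower, with a median of 0.14. That is 37% called, against 21.8% of named genes (9.58% higher and 12.2% lower). In 17 of 27 every shPGC-1alpha array was above every shGFP array, against 17.2% of named genes. In 4 of 27 every shPGC-1alpha array was below every shGFP array, against 21.5% of named genes. ERO1A, the oxidase that drives disulfide formation, measured 10.35, 10.22 and 10.31 in shPGC-1alpha arrays and 9.79, 9.81 and 9.81 in shGFP arrays, a rise of 0.49 (SE 0.07). HYOU1, the HSP110-like exchange factor of this compartment, measured 9.13, 9.13 and 9.22 in shPGC-1alpha arrays and 8.60, 8.62 and 8.75 in shGFP arrays, a rise of 0.50 (SE 0.07). The groups of both genes lay well apart. MANF, which binds the HSP70 of the endoplasmic reticulum, rose by 0.40, and TMX1, a membrane-bound disulfide isomerase, was the partner called lower, by 0.50. The limma adjusted p was 0.00206 for ERO1A, 0.00247 for HYOU1, 0.00587 for MANF and 0.00254 for TMX1, and all 4 passed in each of 14 alternatives. The lectin chaperones CALR and CANX, at 0.17 each, did not pass (limma adjusted p 0.0962 and 0.0921), although their groups did not overlap. The count of calls was 5 with adjustment over all probe sets and 15 with a variance that depends on intensity. Several of these genes are known targets of the unfolded protein response, whose genes were already known to be higher in these arrays when the list was chosen.

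For the mitochondria, 14 of 21 listed partners were among the named genes. Of these 14, 3 were higher and 1 was lower (28.6% called, against 21.8% of named genes, 9.58% higher and 12.2% lower). Their median was 0.03. TRAP1, the HSP90 of mitochondria, measured 8.97, 8.90 and 8.82 in shPGC-1alpha arrays and 9.18, 9.26 and 9.26 in shGFP arrays. It fell by 0.33 (SE 0.07), as HSPD1 did by 0.26, and its groups did not overlap. PPIF, the cyclophilin of the matrix, measured 11.34, 11.32 and 11.38 in shPGC-1alpha arrays and 10.77, 10.73 and 10.74 in shGFP arrays, a rise of 0.60 (SE 0.06). CLPB, a disaggregase, and ATF5, a transcription factor linked to the mitochondrial unfolded protein response, rose by 0.32 and 0.46. The limma adjusted p was 0.0127 for TRAP1, 0.000608 for PPIF, 0.0199 for CLPB and 0.0244 for ATF5. Calls of these genes were lost with 1 array left out: TRAP1 without shGFP replicate 2 (adjusted p 0.0503), CLPB without shPGC-1alpha replicate 1 or 2 or shGFP replicate 2 or 3 (0.0592 to 0.0727) and ATF5 without shPGC-1alpha replicate 2 or 3 (0.0591 and 0.0822). The count was 2 without shPGC-1alpha replicate 2 and without shGFP replicate 2. The proteases and processing peptidases of the list did not pass, and their differences had either sign. PMPCB, HTRA2 and YME1L1 were at -0.16, -0.10 and -0.06, and AFG3L2, PMPCA and SPG7 at 0.05, 0.02 and 0.02.

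**Figure D4:**
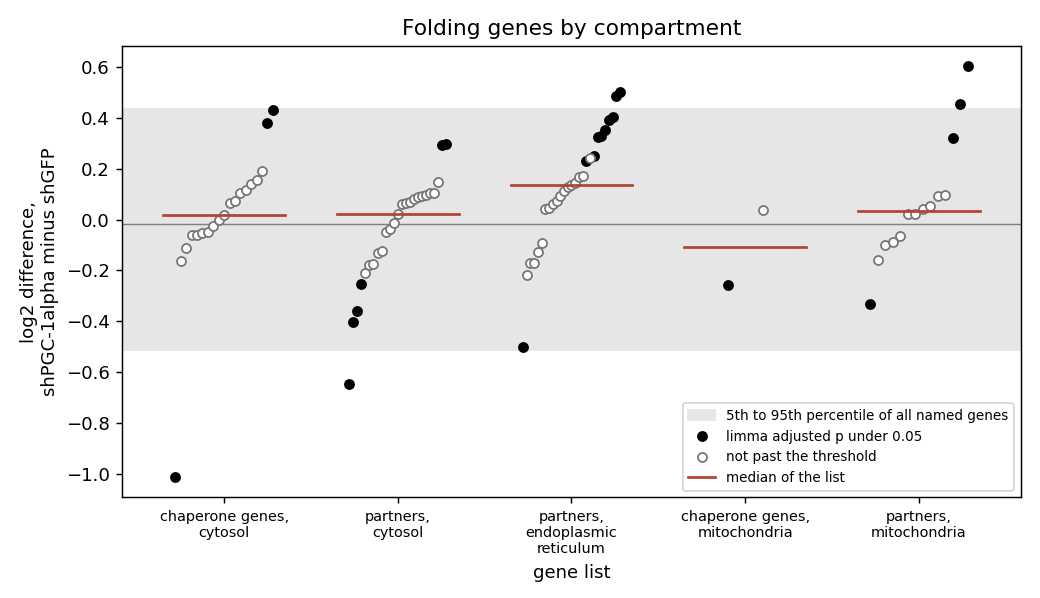
Log2 differences of the chaperone genes and of their partner lists by compartment, each point a gene. Filled points passed an adjusted p of 0.05 in limma, red lines are list medians, and the grey band spans the 5th to 95th percentile of all named genes (-0.51 to 0.43). The endoplasmic reticulum partners have the highest of the 5 medians, at 0.14.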

How the data were processed

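Expression was measured with biotin-labelled RNA on 6 Affymetrix arrays. The authors deposited log2 values for 53617 probe sets and, per the submitters' processing notes, used RMA and Affymetrix Expression Console, for which no version is stated in the sources used here. RMA aligns the arrays' distributions, which would reduce a change of most transcripts in 1 direction. The values carry no counts or detection calls. Groups and replicate numbers came from the titles. The titles call the arrays biological replicates, but no label says whether each culture had its own transduction. The p-values reflect only how these samples spread, which may be technical.

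Of the probe sets, 16098 had 1 gene symbol, 0 had several and 37519 had none. They stood for 14884 genes, each represented by its highest-mean probe set. Listed genes absent from these 14884 were left out, and whether probe sets without a symbol cover them was not tested. All 25 members matched RefSeq. The comparison used lmFit and eBayes of limma 3.58.1 (R 4.3.3), without a filter or block, with Benjamini-Hochberg adjustment over 14884 genes and a threshold of 0.05. The scripts were tested on simulated data. An exact permutation test of 3 against 3 arrays has a smallest p of 0.1.

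Any member could be named. From each partner list came up to 4 of the genes past the threshold, those of smallest p, and other partners were chosen after their values were seen. Members, compartments and lists were chosen with earlier results of these data known. The alternatives were leaving out each array, a replicate block, a filter on dim genes, other probe set choices, adjustment over all probe sets, median-centred arrays, an intensity trend and array weights.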

Additional observations from a re-analysis of the deposited data

How the results depend on the processing

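Of the 25 members, HSPA12A and BAG3 passed in all 14 alternatives, HSPB8 in 9 and HSPD1 in 6, and HSPB1 passed in 1. Of the 4 members called in the comparison above, 0 changed sign. Some members not called did, such as BAG1, whose difference lay between -0.14 and 0.04. With 1 array left out, 2 to 3 members were called in place of 4 (2 to 3 of 3 in the cytosol, 0 to 1 of 1 in the mitochondria), as were 3 to 5 cytosolic, 7 to 9 endoplasmic reticulum and 2 to 4 mitochondrial partners. Calls over all named genes were then 2328 to 2578, against 3243. With adjustment over all probe sets, 2 members were called, 2 in the cytosol and 0 in the mitochondria, with 2, 5 and 1 partners of the cytosol, endoplasmic reticulum and mitochondria. More features are adjusted for in that setting. With median-centred arrays 0 mitochondrial members were called (HSPD1 adjusted p 0.0572), and the share of calls that were higher was 56.5% of 3307, against 44.0% of 3243 as deposited. The cause of the other losses was not tested. The lowest-mean probe set, an alternative chosen after seeing the data, gave 4 calls.

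Replicate numbers were not shown to pair the samples: deviations of same-numbered arrays correlated at 0.117, 0.0874 and 0.0230 for numbers 1, 2 and 3, and 5 of 6 arrays correlated best with their own number. With the replicate block 3 members were called and 0 mitochondrial ones (HSPD1 adjusted p 0.0541), and 2773 named genes. Endoplasmic reticulum members had no value under any setting, since 0 were named. Small differences are limited in precision by 3 arrays a group.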
